A study of Homo sapiens with 9 samples.

Results

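The 10 genes described here are the AP-1 subunit genes JUN, JUNB, JUND, FOS, FOSB, FOSL1, FOSL2 and ATF3, the immediate early transcription factor gene EGR1 and the phosphatase gene DUSP1. They were chosen by symbol from the 18417 genes measured, and each was read by 1 probe set that the array annotation gives to that gene alone. The cells were Hep3B, a line from a human liver cancer, and total RNA of 9 samples was read on Affymetrix gene arrays. Of these, 3 had received a YAP-specific siRNA (a short RNA that lowers the matching transcript), 3 a nonsense siRNA that controls for transfection itself, and 3 were untreated. Cells grew for 24 h in full medium, Oligofectamine carried the siRNAs, and RNA was taken 24 h later. The labels name 1 siRNA treatment against YAP and give no siRNA sequence, and they leave unsaid whether samples of a group were cultured apart, so p-values measure the spread between samples, which may be technical. The titles carry the prefix HUH, but Hep3B stands in the cell line field and is used here. In bulk RNA, fewer cells expressing a gene and less RNA per cell cannot be told apart.

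AP-1 is a dimer of a Jun protein with another Jun, a Fos or an ATF protein, and it binds DNA through a basic leucine zipper. Many AP-1 genes are immediate early genes: growth factors or stress switch them on within minutes through MAP kinases that act on factors already present, without new protein synthesis, and their transcripts are short-lived. DUSP1 is switched on by the same signals and its protein removes phosphate from MAP kinases, which closes a negative feedback loop. AP-1 sites lie beside TEAD sites in many enhancers that YAP occupies, which is why these genes are of interest in cells with less YAP.

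The promoters of 3 members are shown because they hold the letters of sites through which growth and stress signals reach immediate early genes: DUSP1 changed after YAP siRNA, while JUND and EGR1 did not pass. Each sequence is the 250 bases before the RefSeq start site (GRCh38.p14), 5′ to 3′ on the gene's strand. Capitals mark TGACGTCA, the cAMP response element (CRE) that CREB and ATF proteins bind, in DUSP1 and JUND, and the CArG box that serum response factor (SRF) binds in EGR1.
DUSP1, chr5:172771196-172771445, minus strand: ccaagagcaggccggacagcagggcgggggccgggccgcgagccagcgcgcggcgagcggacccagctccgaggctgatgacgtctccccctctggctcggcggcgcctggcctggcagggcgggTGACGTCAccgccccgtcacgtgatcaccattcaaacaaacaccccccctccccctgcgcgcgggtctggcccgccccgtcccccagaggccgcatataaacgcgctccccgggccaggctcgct
JUND, chr19:18281623-18281872, minus strand: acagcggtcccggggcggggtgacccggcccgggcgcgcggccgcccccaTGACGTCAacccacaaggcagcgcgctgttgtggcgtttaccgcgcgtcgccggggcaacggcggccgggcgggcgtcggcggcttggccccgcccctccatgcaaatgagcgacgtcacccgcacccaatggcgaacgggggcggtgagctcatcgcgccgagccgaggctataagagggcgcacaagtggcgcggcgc
EGR1, chr5:138465229-138465478, plus strand: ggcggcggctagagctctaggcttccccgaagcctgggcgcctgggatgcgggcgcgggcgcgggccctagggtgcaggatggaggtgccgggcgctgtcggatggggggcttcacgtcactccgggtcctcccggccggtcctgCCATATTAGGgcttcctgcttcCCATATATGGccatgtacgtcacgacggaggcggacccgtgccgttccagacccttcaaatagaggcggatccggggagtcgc

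Promoters were found for 9 of the 10 members in the RefSeq table, FOSL1 being the exception. In windows of 250 bases before to 50 after the start site, searched on both strands, TGACGTCA stood in 1.98% of 27305 promoters and in 2 members. In DUSP1 it began 125 bases before the start, and in JUND 200 bases before. EGR1 held 2 CArG boxes, which began 105 and 83 bases before its start, where 1.29% of all promoters held any. TGANTCA, the AP-1 site, stood in FOSL2 alone of the members, 5 bases into the transcript, and in 7.76% of promoters. GGAATG, the TEAD site, stood in none of the 9 windows and in 14.05% of promoters. Among the 14239 promoters of measured genes the shares were 2.65% for TGACGTCA, 1.22% for a CArG box, 5.58% for TGANTCA and 11.62% for GGAATG. A match is a run of letters in this window and no measure of binding. Only these exact letters were searched, so variants of a site were not counted and a member without a match may hold one. Both DUSP1, which passed the test after YAP siRNA, and JUND, which did not, held the same letters.

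The targeted gene was read first. YAP1 was at 7.54, 7.52 and 7.48 after YAP siRNA, against 8.66, 8.75 and 8.68 after nonsense siRNA and 8.78, 8.62 and 8.69 in untreated cells, all log2 array signals. It fell by 1.18 against nonsense siRNA (limma, SE 0.0548, adjusted p = 4.34e-09). By exact permutation, two-sided, the 3 YAP siRNA arrays against all 6 control arrays had p = 0.0119, and against the 3 nonsense siRNA arrays 0.1, the smallest that 3 arrays against 3 allow. The medians of the arrays spanned 0.048. The 10 hepatocyte and hepatoma markers measured had a mean of 10.36 to 10.52 on each array, with AFP and ALB at 12.4 and 11.5 and APOH lowest at 7.93. Of 4 leukocyte markers PTPRC averaged 5.99 and CD3E 6.68, while CD68 (8.01) and LYZ (8.91) lay in the range of the hepatoma genes. The signals come from different probe sets, so they place no amount of one RNA against another. Deviations from the group mean correlated across genes between some arrays of different groups. The r was 0.47 between YAP siRNA replicate 3 and nonsense siRNA replicate 2, and 0.34 between YAP siRNA replicate 3 and untreated replicate 3. Nonsense siRNA replicate 2 and untreated replicate 3 correlated at 0.07 with each other. Some other pairs were negative, down to -0.34 (YAP siRNA replicate 3 with nonsense siRNA replicate 3). The deviations of the 3 arrays of a group sum to 0. A positive r with 1 array of a group therefore requires a negative r with another of that group. The 3 arrays YAP siRNA replicate 3, nonsense siRNA replicate 2 and untreated replicate 3 were also left out together. Calls named below that ended there are given as such.

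DUSP1 was the 1 member of 10 that changed after YAP siRNA. Its signal was 9.54, 9.65 and 9.63 after YAP siRNA, against 9.88, 9.997 and 10.14 after nonsense siRNA and 9.96, 10.02 and 9.96 in untreated cells. All 3 YAP siRNA arrays lay below all 6 control arrays. DUSP1 fell by 0.40 against nonsense siRNA (SE 0.0634, 95% interval -0.53 to -0.26, limma adjusted p = 0.00149), so 76.0% of the nonsense siRNA level remained. Against untreated cells it fell by 0.37 (SE 0.0634, 95% interval -0.50 to -0.24, adjusted p = 0.00354), to 77.4%. The controls stood close together, with a difference of 0.03 between nonsense siRNA and untreated cells (95% interval -0.11 to 0.16, adjusted p = 0.836). By p-value DUSP1 ranked 177 of 18417 genes in the first of these comparisons and 156 in the second. The 2 comparisons share the YAP siRNA arrays and so are not independent of each other. Of 23 cell type markers, 2 passed between YAP siRNA and nonsense siRNA, both higher after YAP siRNA: COL1A2, a collagen gene of fibroblasts and stellate cells (0.43, adjusted p = 0.000538), and AHSG, a hepatocyte gene (0.29, adjusted p = 0.0162). The mean of the 5 fibroblast and stellate markers was 7.51 to 7.62 after YAP siRNA, against 7.39 to 7.47 after nonsense siRNA and 7.54 to 7.58 in untreated cells. No marker passed between YAP siRNA and untreated cells. There AHSG (0.24, adjusted p = 0.0561) and COL1A2 (0.22, adjusted p = 0.0710) were still higher on all 3 YAP siRNA arrays than on the untreated ones. The part of the markers in the DUSP1 result of either comparison was not tested.

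The DUSP1 call did not rest on any 1 array. With each of the 9 arrays left out in turn DUSP1 passed in all 9 fits, with differences of -0.46 to -0.33 against nonsense siRNA (highest adjusted p = 0.0123) and of -0.39 to -0.34 against untreated cells (highest adjusted p = 0.0322). With the 3 arrays left out together the fall was 0.41 against nonsense siRNA (adjusted p = 0.00353). It was then 0.39 against untreated cells (adjusted p = 0.00619). With all 33297 probe sets tested, DUSP1 passed against nonsense siRNA (adjusted p = 0.0303) and not against untreated cells (adjusted p = 0.0559).

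**Figure D1:**
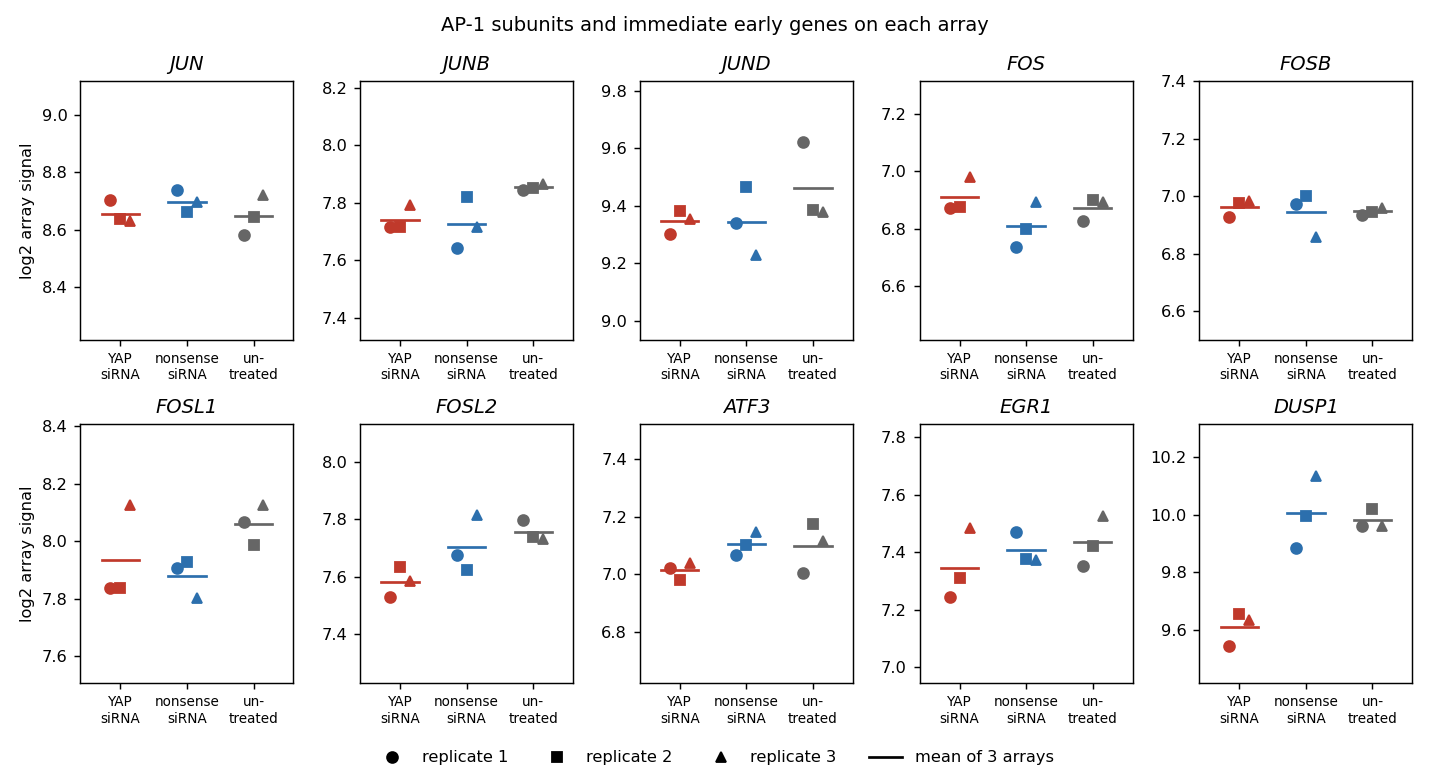
Log2 array signal (vertical axes, each spanning 0.9) of the 10 genes on the 9 arrays, in columns for YAP siRNA, nonsense siRNA and untreated cells; symbols mark the replicate number and lines the mean of 3 arrays. In DUSP1 the YAP siRNA arrays (9.54 to 9.65) lie below all controls (9.88 to 10.14), and in JUNB the untreated arrays (7.85 to 7.87) lie above all transfected ones.

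The count of 1 in 10 stands beside 4.53% of all genes that passed between YAP siRNA and nonsense siRNA and 3.09% that passed between YAP siRNA and untreated cells. With 10 genes, 1 call is too few to set the group apart from that background. Between YAP siRNA and nonsense siRNA 5 members had differences above 0 and 5 below, with a median of -0.02 where the median over all genes was 0.01. Against untreated cells 3 were above and 7 below, with a median of -0.10 where that over all genes was -0.01. The arrays of the 2 groups did not overlap in 2 members against nonsense siRNA (DUSP1 and ATF3) and in 3 against untreated cells (DUSP1, FOSL2 and JUNB), shares that stand beside 20.2% and 20.5% of all genes.

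The Jun subunits can form dimers with each other as well as with Fos proteins, and JUN is the member with which most AP-1 activity in growing cells is linked. JUN was at 8.70, 8.64 and 8.63 after YAP siRNA, against 8.74, 8.66 and 8.70 after nonsense siRNA and 8.58, 8.65 and 8.72 in untreated cells. The 3 groups overlapped throughout, and JUN differed by -0.04 between YAP siRNA and nonsense siRNA (95% interval -0.16 to 0.07, adjusted p = 0.813) and by 0.01 between YAP siRNA and untreated cells (95% interval -0.11 to 0.12, adjusted p = 0.970).

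JUNB, which can hold JUN activity back, was at 7.71, 7.72 and 7.79 after YAP siRNA, against 7.64, 7.82 and 7.72 after nonsense siRNA and 7.85, 7.85 and 7.87 in untreated cells. The untreated arrays lay close together and above all 6 arrays of transfected cells, while both transfected groups overlapped. The difference was 0.01 between YAP siRNA and nonsense siRNA (adjusted p = 0.952), -0.11 between YAP siRNA and untreated cells (95% interval -0.23 to 0.00455, adjusted p = 0.341) and -0.13 between nonsense siRNA and untreated cells (95% interval -0.25 to -0.01, adjusted p = 0.225). None of these passed.

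JUND, the Jun gene that is expressed steadily in resting cells, was at 9.30, 9.38 and 9.36 after YAP siRNA, against 9.34, 9.47 and 9.23 after nonsense siRNA and 9.62, 9.38 and 9.38 in untreated cells. Untreated replicate 1 stood alone at the top. JUND differed by 0.00222 between YAP siRNA and nonsense siRNA (95% interval -0.15 to 0.16, adjusted p = 0.995) and by -0.11 between YAP siRNA and untreated cells (adjusted p = 0.475), a value that was -0.04 without untreated replicate 1 (adjusted p = 0.872).

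The Fos proteins bind DNA only as partners of a Jun protein. FOS, the classic immediate early gene, was at 6.87, 6.88 and 6.98 after YAP siRNA, against 6.74, 6.80 and 6.89 after nonsense siRNA and 6.83, 6.90 and 6.89 in untreated cells. Its groups overlapped, and the difference of 0.10 between YAP siRNA and nonsense siRNA (95% interval -0.02 to 0.22, adjusted p = 0.447) was the highest of the 10 members. FOSB, its close relative, was at 6.93, 6.98 and 6.98 after YAP siRNA, against 6.97, 7.001 and 6.86 after nonsense siRNA and 6.93, 6.95 and 6.96 in untreated cells. The 3 FOSB means lay within 0.02 of each other, and the adjusted p was 0.923 or more in each of the 3 comparisons.

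FOSL1, which encodes FRA1, a Fos relative without a strong activation domain that is often high in tumour cells, had the widest spread of the members after YAP siRNA (SD 0.17, n = 3). It was at 7.84, 7.84 and 8.13 after YAP siRNA, against 7.91, 7.93 and 7.80 after nonsense siRNA and 8.07, 7.99 and 8.13 in untreated cells. YAP siRNA replicate 3 stood with the untreated arrays, and the other 2 YAP siRNA arrays with the nonsense siRNA arrays. Nonsense siRNA lay below untreated cells on all 3 arrays, by -0.18 (95% interval -0.34 to -0.02, adjusted p = 0.204), and YAP siRNA differed from untreated cells by -0.13 (adjusted p = 0.430). Without YAP siRNA replicate 3 that difference was -0.22 (adjusted p = 0.0595), and it did not pass. With the 3 arrays left out together FOSL1 differed by -0.02 between YAP siRNA and nonsense siRNA, where it was 0.05 with all arrays. Between YAP siRNA and untreated cells it then differed by -0.19 (adjusted p = 0.0620).

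FOSL2, which encodes FRA2, had the next largest differences after YAP siRNA among the members. It was at 7.53, 7.63 and 7.59 after YAP siRNA, against 7.68, 7.62 and 7.82 after nonsense siRNA and 7.80, 7.74 and 7.73 in untreated cells. The YAP siRNA arrays lay below all untreated arrays and touched the nonsense siRNA arrays only at nonsense siRNA replicate 2. FOSL2 differed by -0.12 between YAP siRNA and nonsense siRNA (95% interval -0.25 to 0.00208, adjusted p = 0.328) and by -0.17 between YAP siRNA and untreated cells (95% interval -0.30 to -0.05, adjusted p = 0.147). It passed against untreated cells only with array weights (-0.19, adjusted p = 0.0290), a fit in which 9.55% of all genes passed.

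ATF3, a stress-induced partner of Jun proteins that often represses, was at 7.02, 6.98 and 7.04 after YAP siRNA, against 7.07, 7.10 and 7.15 after nonsense siRNA and 7.0045, 7.17 and 7.11 in untreated cells. The YAP siRNA arrays lay below all 3 nonsense siRNA arrays, but by so little that the difference of -0.09 did not pass (95% interval -0.21 to 0.03, adjusted p = 0.486). EGR1, a zinc finger factor and no AP-1 subunit, was at 7.24, 7.31 and 7.48 after YAP siRNA, against 7.47, 7.38 and 7.37 after nonsense siRNA and 7.35, 7.42 and 7.53 in untreated cells. Its groups overlapped, with differences of -0.06 between YAP siRNA and nonsense siRNA (adjusted p = 0.766) and -0.09 between YAP siRNA and untreated cells (adjusted p = 0.561). In both YAP siRNA and untreated cells replicate 3 had the highest EGR1. With the 3 arrays left out together, which include both, EGR1 differed by -0.15 between YAP siRNA and nonsense siRNA (adjusted p = 0.190).

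**Figure D2:**
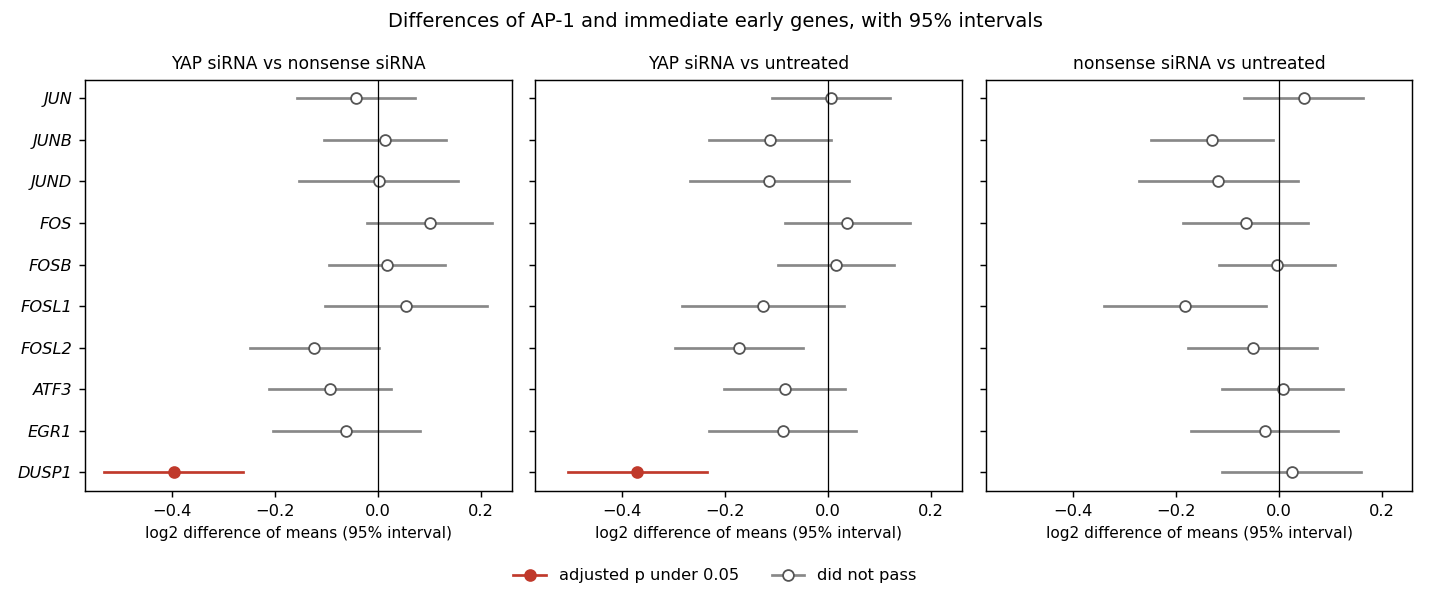
Differences of log2 means (horizontal axes) with 95% intervals for the 10 genes in the 3 comparisons; filled red points passed at an adjusted p under 0.05. DUSP1 is the 1 filled point in each YAP siRNA panel, at -0.40 against nonsense siRNA and -0.37 against untreated cells, and no point is filled between nonsense siRNA and untreated cells.

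The intervals bound how far the signals of the other genes could have moved. For the 9 members that did not pass between YAP siRNA and nonsense siRNA, the intervals together ran from -0.25 to 0.22, which is 84.2% to 117% of the control level. Against untreated cells the 9 intervals ran from -0.30 to 0.16, or 81.3% to 112%. FOS, FOSB and ATF3 averaged 6.86, 6.95 and 7.07, under the median gene signal of 7.31. Whether these or the other members stood over background was not analysed. The intervals are of array signals and may not bound the transcript itself. Smaller changes were not resolved by 3 arrays per group, and 1 time was sampled. Protein amounts, phosphorylation and DNA binding were not measured.

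Transfection alone, read as nonsense siRNA against untreated cells, changed none of the 10 members in limma, beside 0.614% of all genes. At an unadjusted p under 0.05 there were 2, FOSL1 and JUNB, beside 19.5% of all genes. These 2 were also those whose arrays did not overlap between the groups, beside 22.7% of all genes. Both shares are near the background. Of the 10 differences 7 were below 0, with a median of -0.04 where that over all genes was -0.02. With array weights JUNB passed (-0.17, adjusted p = 0.0291), in a fit that called 14.2% of all genes.

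Other genes switched on early by the same signals were read as a list of 28, of which 25 were measured. Against nonsense siRNA 2 fell and 1 rose after YAP siRNA, with a median of 0.01. Against untreated cells 3 fell and 0 rose, with a median of -0.04. Over all genes 4.53% and 3.09% passed in these comparisons, and 0.614% between nonsense siRNA and untreated cells. The same shares stand beside the counts of the lists below. CCN1, a secreted matrix protein gene that is also a standard YAP target, was at 8.75, 8.71 and 8.65 after YAP siRNA, against 9.03, 8.91 and 9.33 after nonsense siRNA and 9.21, 9.46 and 9.37 in untreated cells. CCN1 fell by 0.64 against untreated cells (SE 0.0887, adjusted p = 0.000727) and by 0.39 against nonsense siRNA (adjusted p = 0.0178). Nonsense siRNA replicates 1 and 2 were thus between the other groups, and the difference from nonsense siRNA was -0.27 without nonsense siRNA replicate 3 (adjusted p = 0.0731). Nor did CCN1 pass against nonsense siRNA when YAP siRNA replicate 2 or 3 was dropped.

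GADD45B, which encodes a stress sensor that acts on MAP kinase signalling, was at 8.05, 8.09 and 8.18 after YAP siRNA, against 8.32, 8.53 and 8.36 after nonsense siRNA and 8.44, 8.28 and 8.48 in untreated cells. Like DUSP1 it was lower than both controls on all 3 YAP siRNA arrays, by 0.29 against each (adjusted p = 0.0210 against nonsense siRNA and 0.0288 against untreated cells). Against nonsense siRNA GADD45B was lost without YAP siRNA replicate 1 (adjusted p = 0.0988), YAP siRNA replicate 2 or nonsense siRNA replicate 2, and against untreated cells without YAP siRNA replicate 1 (0.146) or 2 or untreated replicate 1 or 3.

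IER3, a survival gene induced by growth factors, was at 7.71, 7.78 and 7.76 after YAP siRNA, against 7.90, 7.84 and 8.09 after nonsense siRNA and 8.03, 8.15 and 8.17 in untreated cells. IER3 fell by 0.37 against untreated cells (adjusted p = 0.00446), passing in all 9 fits with 1 array left out, and differed by -0.20 from nonsense siRNA (adjusted p = 0.123). RHOB, a small GTPase gene, rose by 0.20 against nonsense siRNA (adjusted p = 0.0453), a call lost in 8 of 9 such fits and kept without YAP siRNA replicate 2. It was also lost with the 3 arrays left out together (adjusted p = 0.108). RHOB differed by 0.04 from untreated cells. PLK3, a kinase gene of the stress response, fell by 0.27 in nonsense siRNA cells against untreated cells (adjusted p = 0.0452), the 1 passing gene of this list in that comparison, and this call was kept in 2 of 9 such fits, those without YAP siRNA replicate 3 or nonsense siRNA replicate 2. With equal array medians PLK3 did not pass (adjusted p = 0.0865).

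**Figure D3:**
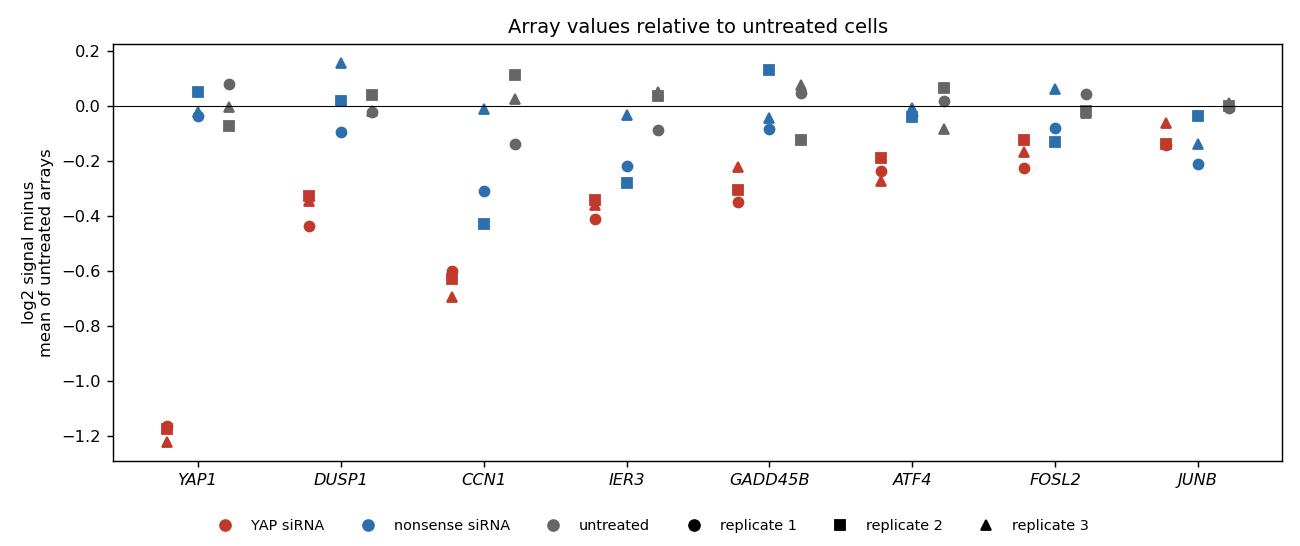
Log2 signal of 8 genes on each array minus the mean of the 3 untreated arrays (vertical axis), with colours for the group and symbols for the replicate number. The YAP siRNA arrays lie below all controls in YAP1, DUSP1, CCN1, IER3, GADD45B and ATF4. Nonsense siRNA arrays are spread in CCN1 and IER3, and in JUNB both transfected groups lie under the untreated arrays.

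Around the AP-1 dimer itself, 9 further partner genes were measured of a list of 10. ATF4, a bZIP factor of the amino acid and stress response, was the 1 that passed, and it was at 9.97, 10.01 and 9.93 after YAP siRNA, against 10.17, 10.17 and 10.20 after nonsense siRNA and 10.22, 10.27 and 10.12 in untreated cells. It fell by 0.21 against nonsense siRNA (adjusted p = 0.0386) and by 0.23 against untreated cells (adjusted p = 0.0258). Leaving out any of the 3 YAP siRNA arrays, or nonsense siRNA replicate 1 or 3, ended the first call (highest adjusted p = 0.137), and leaving out any YAP siRNA array or untreated replicate 1 or 2 ended the second (highest 0.124). With the 3 arrays left out together ATF4 did not pass against nonsense siRNA (adjusted p = 0.0509). It then passed against untreated cells (adjusted p = 0.0127). With equal array medians ATF4 passed in neither comparison (adjusted p = 0.0653 against nonsense siRNA and 0.0771 against untreated cells), and with quantile normalization it did not pass against nonsense siRNA (0.0682). The median difference of the 9 partners was 0.01 against nonsense siRNA and -0.03 against untreated cells.

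Of the other phosphatases that act on MAP kinases, 9 were measured and DUSP16, which acts on JNK, rose by 0.23 against nonsense siRNA (adjusted p = 0.0256), in the direction opposite to DUSP1. Its arrays were at 9.27, 9.32 and 9.24 after YAP siRNA, against 9.02, 9.11 and 9.02 after nonsense siRNA and 9.07, 9.19 and 9.08 in untreated cells. Against untreated cells it differed by 0.16 (adjusted p = 0.141), and the call against nonsense siRNA ended in 4 of the 9 fits that drop an array, those without YAP siRNA replicate 1 or 2 or nonsense siRNA replicate 1 or 3 (highest adjusted p = 0.136).

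Upstream, 12 of 15 MAP kinase genes were measured. Only MAP2K6, the kinase gene that activates p38, passed in any comparison: it rose by 0.33 against untreated cells (adjusted p = 0.00524) and differed by 0.16 from nonsense siRNA (adjusted p = 0.181). MAP2K6 was at 7.58, 7.63 and 7.46 after YAP siRNA, against 7.44, 7.40 and 7.37 after nonsense siRNA and 7.14, 7.30 and 7.25 in untreated cells, so nonsense siRNA lay between the others. Of these 12 MAP kinase genes 5 had an unadjusted limma p under 0.05 between YAP siRNA and nonsense siRNA, beside 15.8% of all genes. There was 1 between YAP siRNA and untreated cells (15.8%) and 6 between nonsense siRNA and untreated cells (19.5%). Of 12 measured genes for SRF, its ternary complex partners, CREB and the kinases that activate them, 0 passed in limma in the 3 comparisons. At an unadjusted p under 0.05 there were 3 against nonsense siRNA, 0 between YAP siRNA and untreated cells and 1 between nonsense siRNA and untreated cells, beside 15.8%, 15.8% and 19.5% of all genes in these comparisons.

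Downstream, 16 textbook AP-1 target genes were measured. CCND1, the cyclin D1 gene, fell by 0.25 against nonsense siRNA (SE 0.0554, adjusted p = 0.0167) and was the 1 that passed in any comparison. It was at 8.99, 9.08 and 9.10 after YAP siRNA, against 9.30, 9.36 and 9.24 after nonsense siRNA and 9.18, 9.28 and 9.23 in untreated cells, and differed by -0.18 from untreated cells (adjusted p = 0.110). CCND1 was lost without YAP siRNA replicate 1 (adjusted p = 0.0979) or nonsense siRNA replicate 1, and with quantile normalization. The list's median difference was 0.01 against nonsense siRNA and -0.01 against untreated cells, the same to 2 decimals as over all genes.

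**Figure D4:**
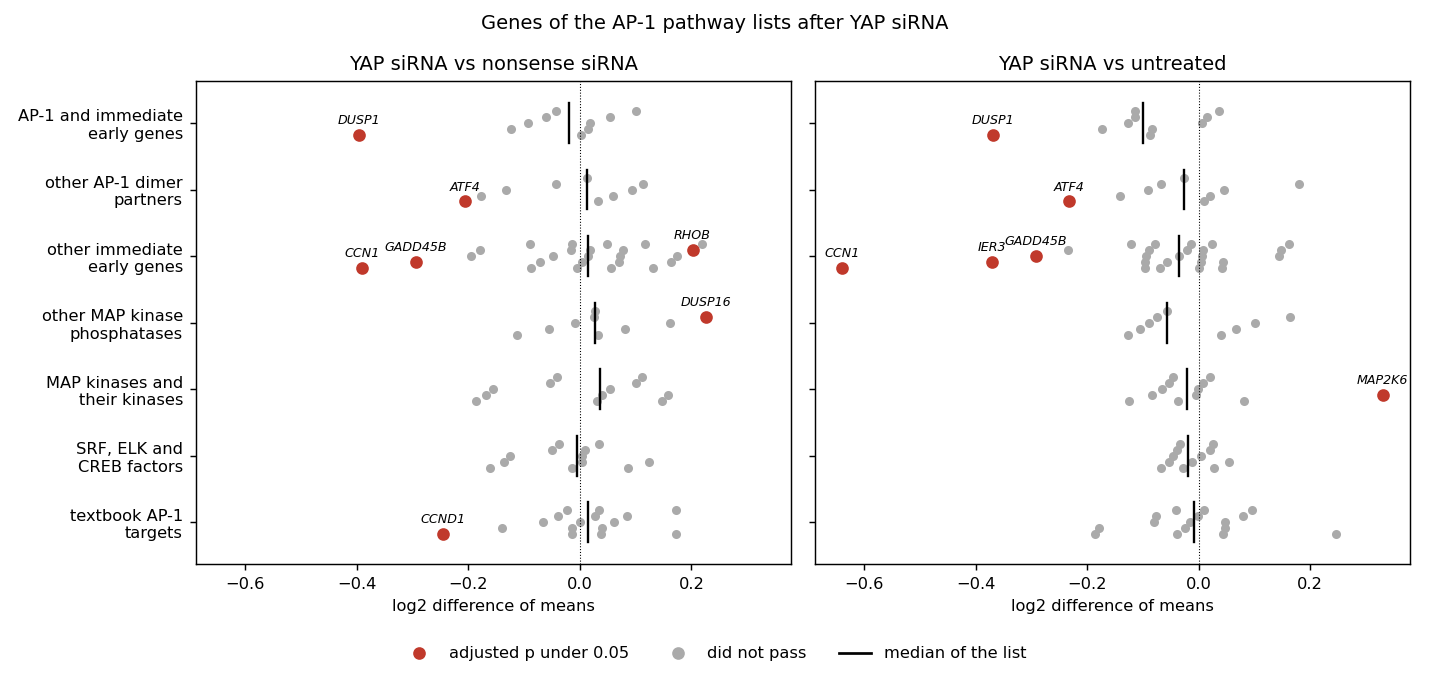
Differences of log2 means after YAP siRNA (horizontal axes) for the 10 members and 6 lists of their pathway, with nonsense siRNA as control on the left and untreated cells on the right; red points passed at an adjusted p under 0.05, and bars mark list medians. DUSP1, CCN1, GADD45B and ATF4 are red and below 0 in both panels.

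The TEAD proteins are the DNA-binding partners through which YAP acts beside AP-1, and 2 of the 4 genes passed in some comparison. TEAD1 fell by 0.42 against nonsense siRNA (adjusted p = 0.000556) and by 0.24 against untreated cells (adjusted p = 0.0408), the second a call that ended in 6 of the 9 fits that drop an array, those without any YAP siRNA array, nonsense siRNA replicate 1 or untreated replicate 1 or 2. TEAD2 fell by 0.42 against untreated cells (adjusted p = 0.00116) and differed by -0.18 from nonsense siRNA (adjusted p = 0.130). TEAD1 against untreated cells was also lost with equal array medians (adjusted p = 0.0958). TEAD1 averaged 8.21 after YAP siRNA, 8.63 after nonsense siRNA and 8.45 in untreated cells, and TEAD2 8.36, 8.54 and 8.77. The controls thus differed: all nonsense siRNA arrays lay above the untreated ones in TEAD1 and below them in TEAD2. Between these groups the arrays of 22.7% of all genes did not overlap, and no TEAD gene passed. TEAD3 differed by -0.14 from nonsense siRNA and by -0.21 from untreated cells (adjusted p = 0.223 and 0.0573). TEAD4 differed by -0.16 and -0.18 (adjusted p = 0.145 and 0.0923), and neither passed.

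Among 9208 other genes with at least the median signal, those whose values followed DUSP1 most closely over the 9 arrays were SERTAD2 (Pearson's r = 0.961), TRIM71 (0.961) and SS18L1 (0.957), and 82 genes had an r over 0.9. SERTAD2, a transcriptional cofactor gene, fell by 0.39 against nonsense siRNA (adjusted p = 0.000585) and by 0.39 against untreated cells (adjusted p = 0.000834). TRIM71, an RNA-binding ubiquitin ligase gene, fell by 0.31 and 0.32 (adjusted p = 0.00383 and 0.00449). SS18L1, a chromatin remodelling subunit gene, did not pass, at -0.08 and -0.09. With all 33297 probe sets tested, CCN1 and TEAD2 still passed against untreated cells (adjusted p = 0.0461 and 0.0337) and TEAD1 against nonsense siRNA (0.0158). In that fit CCN1 did not pass against nonsense siRNA (0.160), nor TEAD1 against untreated cells (0.153), and each call named above for GADD45B, IER3, RHOB, PLK3, ATF4, DUSP16, MAP2K6 and CCND1 was lost. The r values with DUSP1 are a description over arrays that share their 3 groups. SERTAD2, TRIM71 and SS18L1 were picked by their r with DUSP1 on these same arrays. Their differences and adjusted p are thus not independent of the DUSP1 result.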

How the data were processed

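The authors deposited log2 signals for 33297 probe sets. That they are on a log2 scale was read from the values, and how background, probe summary and normalization were handled is not given here. No scaling, pseudocount or filter was added. The supplied array annotation gave 19460 probe sets 1 gene (18417 genes), 1754 several and 12083 none listed. The brightest probe set was used where a gene had several, and no probe set without exactly 1 gene was used. Levels of different probe sets also carry probe affinity, and apart from the check of cell type markers none were compared.

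Using limma 3.58.1 (R 4.3.3), group means were estimated from the 9 arrays together and compared with moderated two-sided tests (prior degrees of freedom 9.29). Benjamini-Hochberg adjustment ran over the 18417 genes in each comparison, the threshold was 0.05, and every adjusted p is from limma. Group spread is the SD of 3 arrays and SE that of the fitted difference. The fit was tested on simulated data. Members, lists, alternatives and the naming rule (all members, up to 4 passing genes per list and comparison with the smallest p, and 3 genes that follow a passing member) were chosen with earlier results of these data known. Promoters and symbols are RefSeq's (GRCh38.p14). Alternatives changed the threshold, scaling, filter on dim genes, probe set rule, variance model and samples, or added array weights, the replicate block or the level of small RNA genes. Figures were drawn with matplotlib 3.10.9.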

Additional observations from a re-analysis of the deposited data

How the results depend on the processing

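Of 651 values of the 30 member differences under the alternatives, 614 kept direction and side of the threshold. Not all could move: the stricter threshold leaves the differences as they were. Dropping an array of the group outside a comparison also leaves the difference unchanged and alters only the spread. Only DUSP1, in the YAP siRNA comparisons, had passed, so for the others keeping their side meant not passing. DUSP1 against untreated cells was lost with all probe sets tested (adjusted p = 0.0559), which leaves 0 members passing there. Array weights added FOSL2 (2 members against untreated cells) and JUNB (1 for nonsense siRNA against untreated cells). Another 34 values of 9 differences that had not passed changed sign, and then lay between -0.06 and 0.04. Members passing were 1, 1 and 0 in every fit with 1 array left out. With the small RNA level as covariate CCN1, DUSP16, ATF4 and RHOB no longer passed against nonsense siRNA, and PLK3 no longer passed between nonsense siRNA and untreated cells; the cause was not tested.

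Counts over all genes moved more. For YAP siRNA against nonsense siRNA 834 genes passed, against 396 at an adjusted p under 0.01, 424 with all probe sets and 2404 with array weights. The count was 451 with the small RNA level as covariate and 1287 with the 3 arrays left out together. Leaving out 1 array gave 426 (without nonsense siRNA replicate 1) to 1231 (without nonsense siRNA replicate 2). For YAP siRNA against untreated cells 569 passed, against 250, 205, 1759, 890 and 1560 in the same fits, and 279 (without YAP siRNA replicate 2) to 775 (without YAP siRNA replicate 3) with 1 array left out. For nonsense siRNA against untreated cells 113 passed, against 11, 0, 2620, 27 and 2319, and also 49 with equal array medians and 67 with only the 6 arrays compared, and 11 (without nonsense siRNA replicate 1) to 1470 (without nonsense siRNA replicate 2) with 1 array left out.

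The titles number replicates alike in each group, but the values did not settle whether numbers pair the arrays. Deviations of same-numbered arrays correlated from -0.34 to 0.34 across genes. As deviations sum to 0 within a group, these values are not independent of those of other pairs. Some arrays, though not all, correlated best with an array of their own number. With the replicate block 789, 509 and 65 genes passed in the 3 comparisons and 1, 1 and 0 members, but the calls of ATF4 and RHOB against nonsense siRNA (adjusted p = 0.0508 each) and of PLK3 between nonsense siRNA and untreated cells (0.0763) were lost. The number of arrays limits the precision, and the deposited values carry no detection calls, so signal over background was not analysed here.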
